A study of Mus musculus with 20 samples.

Results

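Immediate early genes are transcribed within minutes of a strong stimulus without the need for new protein synthesis, and in neurons their transcripts are widely read as a trace of recent synaptic activity. Calcium entering through NMDA receptors and voltage-gated channels activates kinases that phosphorylate CREB and the SRF partners already bound at their promoters. Most of the genes encode transcription factors that then switch on later genes, while a smaller group encodes proteins that act at the synapse itself. In the hypothalamus, the brain region that controls feeding, energy balance and hormone release, Fos is a common marker of neurons that respond to fasting, refeeding or stress.

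The 10 genes described here were taken as a list, Fos, Fosb, Junb, Egr1, Egr2, Egr4, Arc, Npas4, Nr4a1 and Nptx2, and all 10 were found among the 54532 genes of the count table. They were measured by RNA sequencing of flash-frozen hypothalamus from male C57BL/6J mice in 20 libraries of 5 groups. A young control group (n = 4) was 3 months old and had eaten a control diet for 1 week. An acute control group (n = 5) and an acute Gly-Low group (n = 4) were both 4 months old and had eaten either the control diet or Gly-Low, a glycation-lowering diet, for 1 week. An old control group (n = 4) and an old Gly-Low group (n = 3) were 25 months old and had eaten their diets for 5 months. The study asked what the short diet does in young mice, what differs between old and young controls, and what the long diet does in old mice. The labels do not say whether each library is a separate mouse or a pool, and each p-value reflects only how these libraries vary. Bulk RNA cannot tell fewer neurons from less RNA per neuron.

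The promoters of 4 members are shown because they carry the kind of element through which activity reaches these genes. Each run is the 250 bases before an annotated start, taken from RefSeq on GRCm38.p6 and written 5′ to 3′ on the gene's strand. Capitals mark TGACG or its reverse complement CGTCA, the core of the cAMP response element that CREB binds, and also the TATA box TATAAA and, in Egr2, the CArG box that SRF binds. The Fos run is chr12:85473640-85473889 on the plus strand, the Egr2 run is chr10:67537619-67537868 on the plus strand, the Egr4 run is chr6:85513590-85513839 on the minus strand and the Nr4a1 run is chr15:101266596-101266845 on the plus strand. No exon of the GENCODE M21 annotation overlaps them, though the Egr2 and Nr4a1 runs lie inside introns of transcripts that start further upstream.
Fos: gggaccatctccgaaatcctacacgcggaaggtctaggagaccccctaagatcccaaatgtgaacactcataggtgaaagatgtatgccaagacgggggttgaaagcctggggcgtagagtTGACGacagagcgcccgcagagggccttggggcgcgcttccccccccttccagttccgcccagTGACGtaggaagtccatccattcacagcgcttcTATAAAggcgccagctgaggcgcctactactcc
Egr2: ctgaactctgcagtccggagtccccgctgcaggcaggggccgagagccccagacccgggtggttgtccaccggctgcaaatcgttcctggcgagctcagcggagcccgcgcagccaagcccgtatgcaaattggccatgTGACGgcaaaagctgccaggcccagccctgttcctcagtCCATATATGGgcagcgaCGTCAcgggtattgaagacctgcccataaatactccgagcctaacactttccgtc
Egr4: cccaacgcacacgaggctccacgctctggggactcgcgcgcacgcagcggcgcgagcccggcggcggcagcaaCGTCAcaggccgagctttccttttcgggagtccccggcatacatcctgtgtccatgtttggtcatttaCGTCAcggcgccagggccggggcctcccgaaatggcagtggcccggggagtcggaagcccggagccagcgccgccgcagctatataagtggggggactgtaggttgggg
Nr4a1: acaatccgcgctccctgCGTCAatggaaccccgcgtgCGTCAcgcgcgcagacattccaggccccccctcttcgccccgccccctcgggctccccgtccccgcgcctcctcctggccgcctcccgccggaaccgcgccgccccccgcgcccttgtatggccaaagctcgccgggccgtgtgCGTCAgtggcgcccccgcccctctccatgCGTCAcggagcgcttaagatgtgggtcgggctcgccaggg

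Windows from 250 bases before to 50 after a start were searched on both strands for 7 members, namely Fos, Fosb, Junb, Egr2, Egr4, Npas4 and Nr4a1. Chromosome 18 was left out of the search, so Egr1 was not searched, and no window was available for Arc or Nptx2. TGACG was found in at least 1 window of all 7, and 20.8% of the 32817 windows of that length in the table hold it. Egr2 has 5 windows and so more chances to hold a motif than the members with 1. The CArG box was found in 1 of the 7 members searched, Egr2, against 1.63% of all windows. TATAAA was found in Fos and Junb, 2 of 7, against 13.6% of windows, and GCGGGGGCG, a site that EGR proteins bind, in Fosb and Nr4a1, 2 of 7, against 2.91%. The full palindrome TGACGTCA, which contains TGACG, was in 0 of 7 and in 1.79% of all windows. These matches describe the letters of the windows and say nothing of binding in these samples.

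Levels are given as CPM, the unit in which a gene's read count is scaled to its library's total, here adjusted by the trimmed mean of M values (TMM). Library totals ran from 15848372 to 27399753 counts. Divided by transcript length, Fos had the highest mean CPM per kilobase of the 10 genes in young and acute controls and in acute Gly-Low, and Nptx2 exceeded it in old controls (7.91 against 7.49) and old Gly-Low (11.9 against 5.62). Egr2 and Egr4 were low in all 5 groups, with Egr4 below Egr2 in the 3 young groups and above it in both old groups. The order of the groups was shared at its lower end, since the acute Gly-Low mean was the lowest of the 5 for all 10 genes. The acute control mean was the highest for Fos, Fosb, Junb, Egr1, Egr2, Npas4 and Nr4a1, and the old Gly-Low mean was the highest for Egr4, Arc and Nptx2. Between groups next to each other in that order, the ranges of libraries did not overlap in only 4 places. These were the steps from old Gly-Low down to acute Gly-Low for Fos, Fosb and Nr4a1 and from old control down to acute Gly-Low for Nptx2.

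**Figure D1:**
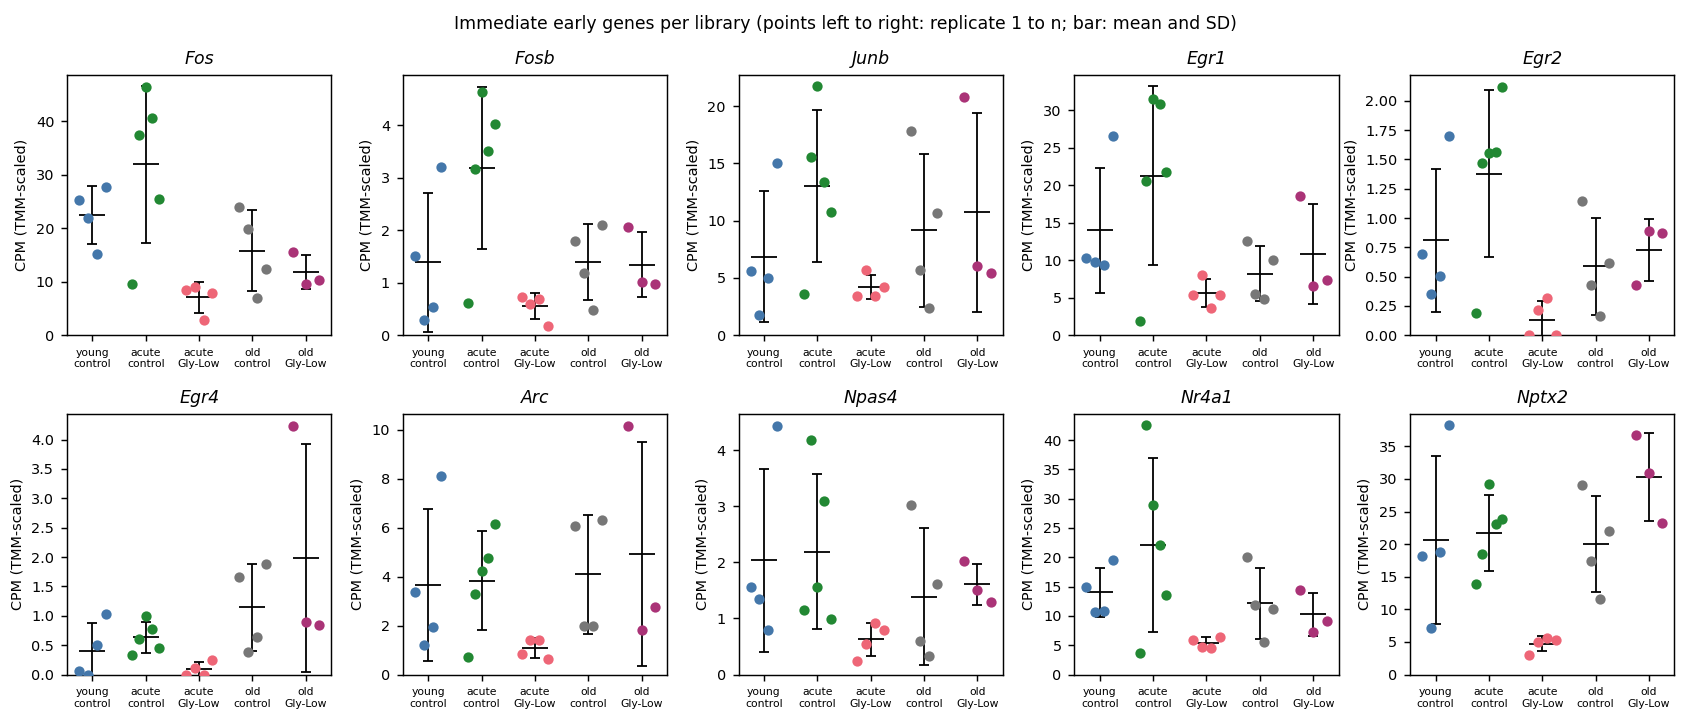
Level of each of the 10 genes in every library (points, CPM on a linear axis) with group means and SD, for the 5 groups. The acute Gly-Low libraries sit lowest for all 10 genes by their mean, and acute control 1 sits below the other acute controls for 9 of them.

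Some features of the libraries touch every result below. The length slope, the slope over genes of a library's log2 CPM deviation on log2 transcript length, is negative where long transcripts are underrepresented. It ran from -0.43 to -0.23 in acute Gly-Low and from 0.14 to 0.23 in acute controls, without overlap, and from -0.27 to 0.22 in young controls. Mitochondrial genes took 17% to 23.3% of counts in acute Gly-Low and 5.35% to 9.11% in acute controls. Pituitary markers summed to 61449 CPM in acute control 2, 32630 in acute control 5 and 3723 in acute control 3, and ran from 46.2 to 226.5 in the acute Gly-Low libraries. The 15 hypothalamus markers were all detected in every group, with a summed CPM of 1568 to 2640 in acute Gly-Low and 551.7 to 4027 in acute controls. The summed CPM of 12 pan-neuronal markers was 4065 to 4772 in acute Gly-Low and 5872 to 7222 in acute controls. The part of these differences in the results below was not tested except where a value is given.

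After 1 week of the diet in young mice, all 10 genes were lower in acute Gly-Low than in acute control at an adjusted p under 0.05 in edgeR's quasi-likelihood test with Benjamini-Hochberg adjustment. The median log2 fold change of the 10 was -2.08, against -0.07 over all 17161 genes tested. Calls were common in this comparison, since 58.3% of genes passed in either direction and 30.5% passed as lower. The members lay toward the lower end of the distribution, from Egr2, below which 0.28% of tested genes fell, to Junb, below which 6.4% fell. Egr2 and Egr4 reached the count filter of 0.45 CPM in 4 of 5 acute controls and in 0 of 4 acute Gly-Low libraries, so they were tested only through the group in which they were high. With no count filter all 10 genes were again called lower.

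The AP-1 proteins, dimers of a Fos and a Jun family member, are the classical product of the immediate early response. Fos, the founding member (ENSMUSG00000021250, chr12:85473890-85477273 on GRCm38), measured 9.61, 37.6, 46.5, 40.6 and 25.5 CPM in acute controls 1 to 5. In acute Gly-Low libraries 1 to 4 it measured 8.52, 9.07, 2.82 and 7.96 CPM. Every acute Gly-Low library was below every acute control, although acute control 1 exceeded the highest of them by little. The fold change of Fos was -2.15 ± 0.40 on the log2 scale (SE, adjusted p = 0.000371, edgeR), from a mean of 32 ± 14.6 CPM (SD, n = 5) to 7.09 ± 2.89 CPM (SD, n = 4).

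Fosb, whose truncated product ΔFosB accumulates on repeated stimulation (ENSMUSG00000003545, chr7:19302696-19310051), fell from 3.19 ± 1.54 to 0.55 ± 0.249 CPM (SD, n = 5 and 4). Acute control 1, at 0.618 CPM, lay within the acute Gly-Low range of 0.185 to 0.73 CPM, while the other acute controls held 3.16 to 4.63 CPM. Its log2 fold change was -2.50 ± 0.54 (SE, adjusted p = 0.00114, edgeR). Junb, a Jun family partner of Fos (ENSMUSG00000052837, chr8:84974484-84978718), measured 3.62, 15.6, 21.7, 13.4 and 10.8 CPM in acute controls and 3.47, 5.69, 3.46 and 4.2 CPM in acute Gly-Low. Acute control 1 again lay inside the Gly-Low range. The log2 fold change of Junb was -1.61 ± 0.38 (SE, adjusted p = 0.00202, edgeR). Junb overlaps Prdx2, a peroxiredoxin gene on the other strand, and since the libraries kept no strand, reads of the shared stretch cannot be told apart. Prdx2 went the other way, with a log2 fold change of 0.71 ± 0.13 (SE, adjusted p = 0.000271, edgeR).

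The EGR proteins are zinc finger transcription factors induced by the MAP kinase pathway through SRF. Egr1, the most abundant of the 3 here per length (ENSMUSG00000038418, chr18:34859823-34864984), measured 1.95 CPM in acute control 1 and 20.5, 31.5, 30.8 and 21.7 CPM in acute controls 2 to 5. The acute Gly-Low libraries held 5.36, 8.09, 3.59 and 5.43 CPM. Acute control 1 was therefore below every acute Gly-Low library, and the other 4 controls were above all of them. The log2 fold change of Egr1 was -1.90 ± 0.52 (SE, adjusted p = 0.00604, edgeR).

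Egr2 and Egr4 were scarce. Egr2 (ENSMUSG00000037868, chr10:67535475-67542188) had 4 to 51 reads in an acute control, and 0 reads in acute Gly-Low 1 and 4, with at most 7 reads in any acute Gly-Low library. Its fitted log2 fold change of -3.20 ± 0.83 (SE, adjusted p = 0.00421, edgeR) rests on these counts. Egr4 (ENSMUSG00000071341, chr6:85511121-85513589) had 7 to 25 reads in an acute control and 0 to 4 in acute Gly-Low, with 0 reads in libraries 1 and 3, and the groups did not overlap. Its fitted log2 fold change was -2.81 ± 0.83 (SE, adjusted p = 0.00943, edgeR), and at so few reads the size of either change is poorly fixed.

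Npas4, a neuron-specific transcription factor that responds to calcium entry and shapes inhibitory synapses (ENSMUSG00000045903, chr19:4984355-4990316), measured 0.996 to 4.18 CPM in acute controls and 0.243 to 0.91 CPM in acute Gly-Low. It was the only member whose lowest acute control was library 5 and not library 1. The groups did not overlap, and the log2 fold change was -1.78 ± 0.53 (SE, adjusted p = 0.00986, edgeR). Nr4a1, an orphan nuclear receptor also known as Nur77 (ENSMUSG00000023034, chr15:101254269-101274795), measured 3.62, 42.5, 29, 22.1 and 13.5 CPM in acute controls. In acute Gly-Low it was steady at 5.97, 4.7, 4.55 and 6.42 CPM, all above acute control 1 and below the other controls. Its log2 fold change was -2.01 ± 0.48 (SE, adjusted p = 0.0022, edgeR).

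Arc and Nptx2 encode proteins that work at synapses. Arc, whose mRNA is transported to dendrites and whose protein promotes removal of AMPA receptors (ENSMUSG00000022602, chr15:74669083-74672570), measured 0.713, 3.28, 4.24, 4.75 and 6.14 CPM in acute controls and 0.852, 1.42, 1.41 and 0.617 CPM in acute Gly-Low. Acute control 1 lay inside the Gly-Low range. The log2 fold change of Arc was -1.80 ± 0.50 (SE, adjusted p = 0.00632, edgeR). Nptx2, a secreted pentraxin that clusters AMPA receptors (ENSMUSG00000059991, chr5:144545902-144557478), measured 13.9, 18.4, 29.2, 23.1 and 23.8 CPM in acute controls and 3.04, 5.03, 5.64 and 5.31 CPM in acute Gly-Low. Its 4 Gly-Low libraries all lay below acute control 1, its lowest control. Its log2 fold change of -2.17 ± 0.24 had the smallest standard error and the smallest p of the 10 members (SE, adjusted p = 3.22e-06, edgeR).

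Acute control 1 decided whether the groups separated. All 4 acute Gly-Low libraries were below all 5 acute controls for 4 members, Fos, Egr4, Npas4 and Nptx2, and such a gap occurred in 23.9% of all genes tested. They were below acute controls 2 to 5 for 10 of 10 members, against 31.3% of all genes. The summed level of the 10 genes was 35.7 CPM in acute control 1, 109 to 171 CPM in acute controls 2 to 5 and 23.4 to 35.5 CPM in acute Gly-Low. Acute control 1 had a length slope of 0.14 and 9.11% mitochondrial counts, and the lowest pituitary marker sum of the 20 libraries, 9.23 CPM. Its hypothalamus marker sum was also the lowest of the 20, at 551.7 CPM, against 1050 to 4027 CPM in acute controls 2 to 5. The part of that difference in the member levels was not tested. Acute control 4, with 347.9 CPM of pituitary markers, held 143.7 CPM of the 10 genes. The part of pituitary transcripts in the result was not tested beyond the fit that follows. Without acute controls 2, 3 and 5, which held the most pituitary transcripts, 4 of the 8 members that could be tested were called lower. Those were Fos, Npas4, Nr4a1 and Nptx2, with log2 fold changes of -1.86, -1.76, -1.28 and -1.98, and only acute controls 1 and 4 remained. In that fit 7177 of 17586 genes passed, 3719 of them as lower.

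**Figure D2:**
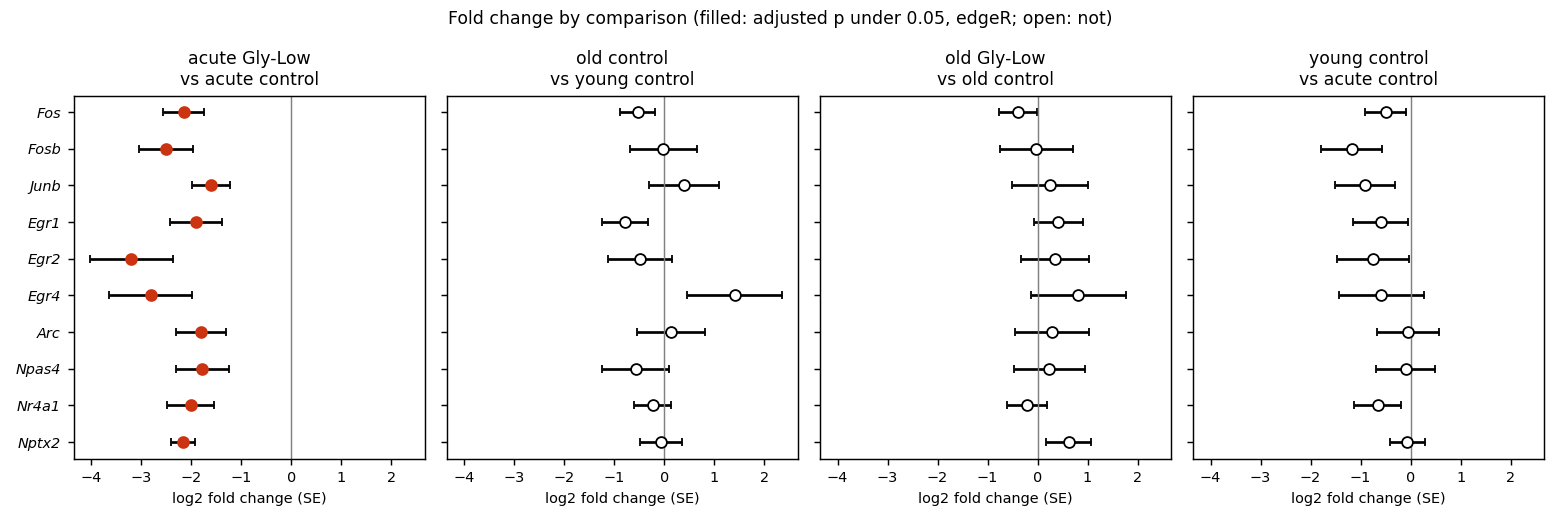
Log2 fold change of each gene with its standard error in each pairwise comparison of groups, with calls marked. In the acute diet comparison all 10 genes lie below 0 and pass the threshold, from -1.61 for Junb to -3.20 for Egr2. In the age and old diet comparisons no gene passes.

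The call depended on how transcript length was treated. An offset taken from each library's own trend over 40 length bins left 10 of 10 called lower, with a median of -1.99. When the length slope of each library was instead a covariate in a fit of all 20 libraries, 0 of 10 members were called and their median was -0.05, while 3807 of 19061 genes still passed. In that fit Fos stood at -1.45 ± 0.70 (SE, adjusted p = 0.153, edgeR) and Nptx2 at -0.42 ± 0.34 (SE, adjusted p = 0.417, edgeR). Fosb, Junb, Egr4, Arc and Npas4 took values above 0 there, from 0.12 to 1.32, none of which passed. That fit estimates the effect of the slope from differences between libraries of the same group. The slopes of the 2 acute groups do not overlap, so acute Gly-Low and acute control are never compared at a shared slope. Whether the within-group effect holds across that gap was not tested. The members' transcripts are 1809 to 3760 bases long, and among the 7188 tested genes of that length range 31.9% were called lower and 20.5% higher, with a median log2 fold change of -0.17.

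**Figure D3:**
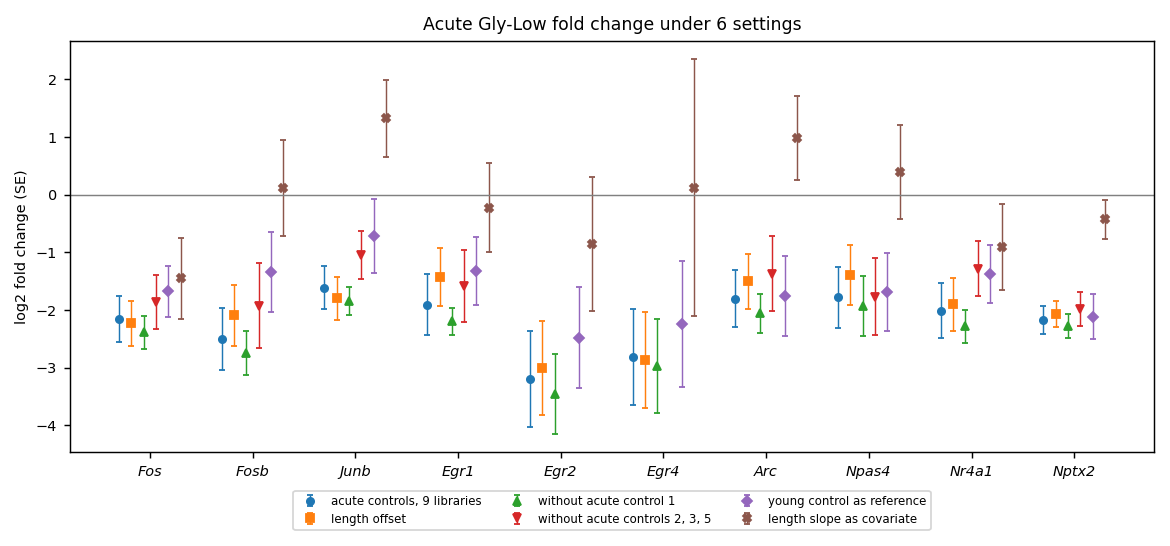
Log2 fold change of each of the 10 genes in the acute diet comparison under the main fit and a choice of the other settings. The values lie below 0 under most settings. Where the length slope is a covariate they spread to both sides of 0, from -1.45 for Fos to 1.32 for Junb, with a median of -0.05.

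Libraries of other groups with low length slopes also tended to hold less of these transcripts. Young control 2, with a slope of -0.27 and 17.2% mitochondrial counts, was the lowest of its group for 7 of 10 members, and young control 4, with a slope of 0.22 and 5.73%, was the highest for 10 of 10. Old control 3, with a slope of -0.20 and 15.8%, was the lowest of its group for 9. Old Gly-Low 1, with the highest slope of all libraries at 0.29, was the highest of its group for 9. Young control 2, whose slope was within the acute Gly-Low range, was above all 4 acute Gly-Low libraries for 6 members, Fos, Egr1, Egr2, Npas4, Nr4a1 and Nptx2. It lay inside their range for 3, Fosb, Egr4 and Arc, and below all 4 for Junb, at 1.81 CPM. For Egr2 the gap rested on 6 reads in young control 2 against 7 in acute Gly-Low 3, 0.35 and 0.32 CPM. No share of all genes is given beside these counts of members. Acute control 1, with 35.7 CPM of the 10 genes, had a slope inside the range of the other acute controls. Other libraries went against the tendency too. Acute Gly-Low 3 had the highest slope of its group, -0.23, and the lowest sum, 23.4 CPM. Acute control 5 had the highest slope of its group, 0.23, and held 109 CPM, less than any acute control but library 1. Old Gly-Low 2, with a slope of 0.08, held 66.3 CPM, and old Gly-Low 3, with 0.16, held 62.3 CPM. The part of the slope in the member levels was not tested beyond the fits above.

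**Figure D4:**
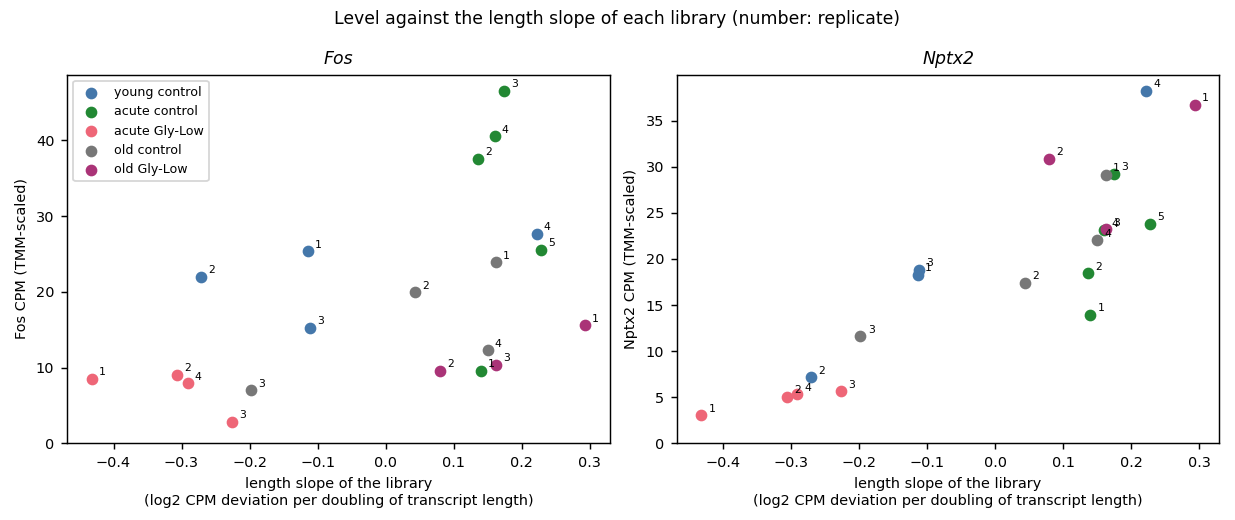
CPM of Fos and of Nptx2 in each library (vertical axes) against the length slope of that library (horizontal axis), by group. The acute Gly-Low libraries lie at the lower left, with 2.82 to 9.07 CPM of Fos and 3.04 to 5.64 CPM of Nptx2. Acute control 1 lies further right, with 9.61 CPM of Fos and 13.9 CPM of Nptx2.

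Measured against the young controls of the ageing arm (a reference picked once the values were known), acute Gly-Low was lower in all 10 genes and 4 passed, in a fit of all 20 libraries. In that fit 6246 of 19061 genes passed, 3200 of them as lower. Fos was lower by a log2 fold change of -1.67 ± 0.44 (SE, adjusted p = 0.00685, edgeR) and Nptx2 by -2.12 ± 0.39 (SE, adjusted p = 0.000403, edgeR). Egr2 and Nr4a1 were the others, at -2.48 and -1.38. Young controls and acute controls are both young mice on the control diet for 1 week, but their arm and their age of 3 or 4 months cannot be told apart. Between them 0 of 10 members were called by edgeR, with 0 at an unadjusted p under 0.05 and 0 by DESeq2, while 5.29% of all genes passed. The 10 members had log2 differences of young minus acute control from -1.18 for Fosb to -0.06 for Arc, and all 10 overlapped. Without young control 4, Fosb alone was called.

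Old and young controls were compared to ask what differs with age. By edgeR 0 of 10 members were called, with 0 at an unadjusted p under 0.05 and 0 by DESeq2. Few genes passed at all, 0.0328% of 18281, although 1663 genes had an unadjusted p under 0.05. Fos measured 25.3, 22, 15.2 and 27.7 CPM in young controls 1 to 4 and 23.9, 19.9, 7.02 and 12.3 CPM in old controls 1 to 4, a log2 fold change of -0.53 ± 0.35 (SE). The old libraries reached lower than the young ones, and the ranges overlapped. Egr1 differed by -0.79 ± 0.46 (SE) on the log2 scale and Egr4 by 1.41 ± 0.95 (SE), the lowest and the highest of the 10. Egr4 held 0, 0.0627, 0.503 and 1.03 CPM in the 4 young controls and 0.378 to 1.87 CPM in the old controls. All 10 members overlapped between the groups.

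After 5 months of the diet in old mice, 0 of 10 members were called by edgeR, 0 had an unadjusted p under 0.05 and 0 were called by DESeq2. In this comparison 0% of 18281 genes passed, 433 had an unadjusted p under 0.05, and DESeq2 called 3. It shares the old controls with the age comparison, so the values of the 2 comparisons are not independent. Fos measured 15.6, 9.59 and 10.4 CPM in old Gly-Low, inside the old control range, a log2 fold change of -0.39 ± 0.38 (SE). Nptx2 measured 29.1, 17.4, 11.6 and 22 CPM in old controls and 36.7, 30.9 and 23.2 CPM in old Gly-Low, a log2 fold change of 0.62 ± 0.45 (SE, adjusted p = 0.953, edgeR). Its 3 Gly-Low libraries lay in the upper part of the joint range, with overlap. Arc and Egr4 owed their high old Gly-Low means to library 1, which held 10.2 CPM of Arc and 4.22 CPM of Egr4 against 1.82 and 2.77 CPM of Arc, and 0.889 and 0.84 CPM of Egr4, in the other libraries.

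The diet effects in the 2 arms were compared directly, as the old diet effect minus the acute diet effect in a fit of all 20 libraries. This difference was above 0 for all 10 genes and passed for 6, Fos, Fosb, Egr1, Egr2, Egr4 and Nptx2, while 36% of all genes passed in either direction and 16.8% passed as higher. It was 2.78 ± 0.54 for Nptx2 (SE, adjusted p = 0.000671, edgeR) and 1.76 ± 0.62 for Fos (SE, adjusted p = 0.0332, edgeR). Junb, Arc, Npas4 and Nr4a1 did not pass, with differences of 1.86, 2.08, 2.00 and 1.79 and adjusted p-values of 0.115, 0.0939, 0.101 and 0.0543 (edgeR). Age, diet duration and arm change together here and cannot be told apart. With the length slope as a covariate 0 of 10 passed, and Fosb, Junb, Egr4, Arc and Npas4 took values below 0, from -1.86 for Junb to -0.38 for Egr4. Without acute controls 2, 3 and 5 and old control 3 only Nptx2 passed, at 2.37 (adjusted p = 0.0165, edgeR). Leaving out 1 library at a time gave 2 to 8 members, with 2 where acute control 3 or 4, acute Gly-Low 3, old control 3 or old Gly-Low 1 was left out, 3 where acute control 2, acute Gly-Low 1 or old control 2 was, and 8 without acute control 1.

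Member levels varied together within groups. Over the 20 libraries, the deviation of log2 CPM from the group mean had a Pearson r from 0.27 to 0.90 over the 45 pairs of members, with a median of 0.64. These points share library depth, length slope and mitochondrial share. The protein-coding genes whose deviations were most like the members' mean were Cnpy3, Ptpn1, Faim2, Syp and Sprn, with r from 0.94 to 0.95 among 13723 genes ranked. Syp encodes synaptophysin, a synaptic vesicle protein, and Ptpn1 a tyrosine phosphatase that acts on the insulin and leptin receptors. Ranked by the deviation from the mean of all libraries instead, the closest 5 were Lpin1, Fry, Tmem184b, Mpp2 and Unc79, with 0 shared.

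The other genes of the response were mixed in the acute diet comparison. Of 39 other rapid activity-response genes tested, 12 fell and 4 rose, with a median log2 fold change of -0.39. This and the counts that follow stand beside 30.5% of all genes called lower and a median of -0.07 over all genes, and the share of the rapid genes that fell is near that background. The 4 with the smallest p were Plk2, a kinase that acts in synaptic scaling (-0.93), Rgs2, a brake on G protein signalling that rose (0.88), and the MAP kinase phosphatases Dusp4 (-1.66) and Dusp1 (-0.97). Their summed level was 643 to 658 CPM in acute Gly-Low, inside the acute control range of 513 to 675 CPM. With the length offset 8 fell and 3 rose, and with the slope covariate 3 fell and 4 rose.

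Close relatives of the members, singled out after their values were seen, did not all move with them. Fosl2 (-1.43), Jun (-1.35), Nptx1 (-1.87) and the pentraxin receptor Nptxr (-1.12) fell. Another 5 did not pass, namely Fosl1 at -0.49, Jund at -0.49, Egr3 at -0.32, Nr4a2 at -0.39 and Nr4a3 at -0.67. Egr3 measured 1.75 ± 0.639 CPM (SD, n = 5) in acute controls and 1.39 ± 1.05 CPM (SD, n = 4) in acute Gly-Low, and Egr1 and Egr2 of the same family fell.

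Of 20 later activity-response genes, 8 fell and 5 rose, with a median of -0.15. The 4 with the smallest p were Nptx1, Rasgrp1 (-1.74), an activator of Ras, Crem (1.18), a relative of CREB that includes repressor forms, and Rheb (1.12), an activator of mTORC1. Of 30 receptors, channels, kinases and transcription factors that act upstream of the members, 21 fell and 1 rose, with a median of -0.71. The leading genes were the NMDA receptor subunits Grin2b (-2.86) and Grin1 (-3.16), the kinase gene Rps6ka2 (-1.79) and the calcium channel subunit Cacna1c (-2.25). With the slope covariate 5 fell and 4 rose. Pan-neuronal markers had 7 of 12 lower and 0 higher, with a median of -0.76. Striatum markers had 7 of 9 lower and 0 higher, with a median of -0.69, and endothelial markers 5 of 7 lower and 1 higher, with a median of -1.36. The summed CPM of the striatum markers was 75.4 to 96 in acute Gly-Low and 117 to 177.2 in acute controls, and that of the endothelial markers 86.4 to 113.8 and 112.2 to 172.4. Astrocyte markers summed to 2065 to 2703 CPM in acute Gly-Low and 2802 to 3632 in acute controls. Thalamus markers summed to 304.2 to 486 and 508.6 to 751.6. Oligodendrocyte markers lay higher, at 7185 to 10342 CPM against 4769 to 8899, with overlap. Microglia markers (279.6 to 314.9 against 256.4 to 305.4) and cortex and hippocampus markers (17.7 to 23 against 22.3 to 27.9) overlapped as well. Within groups the striatum sum was lowest in acute control 1 (117), young control 2 (69.1) and old control 3 (95.6), and highest in young control 4 (201) and old Gly-Low 1 (223.2), libraries that were also at the extremes for the members. Other libraries differed. Among old controls the striatum sum was highest in library 4 (180.1), while library 1 was highest for 7 members. Among acute Gly-Low libraries it was highest in library 3 (96), which held the lowest sum of the members, 23.4 CPM. The part of these markers in the members' levels was not tested. Heat shock genes, which can respond to handling of tissue, had 2 of 8 lower, Hsph1 and Hspa1a, and 2 higher, Hspb1 and Hsp90aa1.

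In the age and old diet comparisons 0 genes of these 3 lists were called by edgeR. At an unadjusted p under 0.05 there were 5 rapid, 1 later and 2 upstream genes for age, and 0, 1 and 0 for the old diet. DESeq2 called 1 later gene for age and 0 otherwise. In the difference of diet effects, 12 of the 30 upstream genes were higher and 1 lower, and 3 of the 39 rapid genes were higher and 1 lower, beside 16.8% of all genes called higher. Of all genes, 3666 of 19061 were called lower. Later genes passed in both directions. The 4 of them with the smallest p were Rasgrp1 (1.88), which was higher, and Nrn1 (-1.70), Rheb (-1.56) and Crem (-1.43), which were lower. The lists were not tested against each other. Between young and acute controls, the later genes Crh (1.77), Tac1 (0.87) and Cartpt (1.11), which encode neuropeptides, were higher in young controls, while 0 rapid genes passed, with 5 at an unadjusted p under 0.05 and 1 called by DESeq2.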

How the data were processed

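Poly-A RNA of flash-frozen hypothalamus was sequenced as non-directional libraries, per the labels' protocols. The authors deposited whole-number counts of reads for each gene, without normalization. Tools listed in the submitters' processing notes are featureCounts 1.5.0-p3, HISAT2 2.0.5 and DESeq2 1.20.0, with build GRCm38, and the annotation release and strand setting were not given in the sources used here. Symbols, positions and lengths (median of basic transcripts) came from GENCODE M21.

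Counts were filtered with filterByExpr, scaled with TMM and tested in edgeR 4.0.16 (R 4.3.3) by the quasi-likelihood F test, with Benjamini-Hochberg adjustment over all genes tested and a threshold of 0.05. The acute diet was fitted on 9 libraries, age and old diet on 11, and the other comparisons on 20. Alternatives were DESeq2 1.42.0, other size factors and filters, a length offset and covariate, a replicate block, other sample sets and leaving out each library. The steps were tested on simulated data.

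The members, lists and alternatives were chosen with earlier results of these data known. Genes named by rule are all 10 members, up to 4 genes of the smallest p past the threshold per list, and the 5 most alike protein-coding genes with a mean of at least 1 CPM. Outside the rule, relatives of the members, Prdx2, and the called heat shock genes are named, chosen after their values were seen.

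Titles share replicate numbers. Same-numbered old libraries deviated together (correlations of 0.42, 0.27 and 0.25 over 3 pairs), but 0 of 3 correlated best with its own number and old Gly-Low is numbered differently in the table's columns. Of same-numbered young and old controls, pairs 2 and 4 correlated at 0.27 and 0.60, each best with its own number. Pairs 1 and 3 of these controls correlated at -0.05 and 0.09, and neither was best with its own number.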

Additional observations from a re-analysis of the deposited data

Results flagged for a closer look

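Egr1 measured 26.6 CPM in young control 4, far above the 9.38 to 10.4 CPM of the other 3 young controls. It was 1 sample far from its group among 40 combinations of gene and group examined, where chance gives about 1 in 20. Young control 4 had the highest level of its group for all 10 members.

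The diet effect in old mice differed from that in the acute arm for 6 members, tested as an interaction in a fit of all 20 libraries with edgeR. The difference was 1.76 for Fos (adjusted p = 0.0332), 2.46 for Fosb (0.0497), 2.31 for Egr1 (0.0355), 3.54 for Egr2 (0.0244), 3.61 for Egr4 (0.0472) and 2.78 for Nptx2 (0.000671), on the log2 scale. Values without the doubted libraries and with the length slope in the fit are given with the other settings.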

How the results depend on the processing

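For the acute diet, 10 of 10 members were called lower in edgeR and also with DESeq2, other size factors, no filter, the length offset and a fit of all 20 libraries. Members called fell to 0 with the length slope as a covariate and to 4 without acute controls 2, 3 and 5 or, chosen after seeing the data, against young controls. With the slope covariate the log2 fold change reversed for Fosb (0.12), Junb (1.32), Egr4 (0.12), Arc (0.99) and Npas4 (0.40), none past the threshold; for the difference of diet effects it reversed for Fosb (-0.80) and Egr4 (-0.38), and Junb (-1.86), Arc (-1.65) and Npas4 (-0.59), called in neither fit, also turned below 0. The cause was not tested. Leaving out 1 library gave 8 to 10 members for the acute diet (8 were testable in the lowest cases), 0 to 1 for young controls and 2 to 8 for the difference, and changed no member call for age or old diet.

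The replicate block changed no member's call for age, old diet or young controls; for the acute diet Egr1 was lost and 9 were called, 8 with the length offset as well, and for the difference 4 passed. For the difference of diet effects, 3 members passed with the length offset, 3 with the replicate block and length offset, 0 with the slope covariate and 1 without acute controls 2, 3 and 5 and old control 3.

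Of all genes, the acute diet called 10005, against 3807 with the slope covariate, 6538 with the replicate block and length offset, and 6246 against young controls. Age called 6, against 388 with DESeq2, 11 with no filter, 19 with the length offset, 413 with the slope covariate, 123 with the replicate block and length offset, 120 in a fit of all 20 libraries, 0 with only the 2 groups, 2 without young control 2 and old control 3, 70 with acute controls as reference, and 0 to 6 leaving out 1 library. The old diet called 0, against 3 with DESeq2. Young controls called 1009, against 1746 with DESeq2, 241 with the length offset, 0 with the slope covariate, 0 with the replicate block with or without the offset, 3 with only the 2 groups, 0 without acute controls 2, 3 and 5 and young control 2, and 0 to 3957 leaving out 1 library. The difference called 6859, against 4424 with the length offset, 1718 with the slope covariate, 4147 with the replicate block and length offset, 3735 without acute controls 2, 3 and 5 and old control 3, and 5206 to 7561 leaving out 1 library.

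Values past the threshold in neither fit that changed sign numbered 24 for age, 20 for old diet, 27 for young controls and 3 for the difference. Egr2 and Egr4, at 0 to 7 reads in acute Gly-Low, are limited by depth.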

Other observations

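Within libraries, the proportions of the members also varied. The log2 ratio of Fos to Nptx2 was -1.36 in old Gly-Low and -0.41 in old controls, and that of Nr4a1 to Nptx2 was -1.59 and -0.79, without overlap between the groups in either case. In old controls the log2 ratio of Egr1 to Egr4 was 2.95 against 5.63 in young controls, that of Egr1 to Arc 1.10 against 2.13 and that of Egr1 to Nptx2 -1.32 against -0.47, again without overlap. These 5 ratios were picked after all 45 pairs had been examined in 4 comparisons, in which 8 did not overlap, and they were not tested. Egr4 had 0 reads in 1 young control, so its ratio depends on the 1 read added to each count.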
